A study of Homo sapiens with 4 samples.

Results

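The CDK inhibitors of the CIP/KIP and INK4 families were examined in NGP cells, an established human neuroblastoma line with amplified MYCN. The 6 members were CDKN1A, CDKN1B and CDKN1C of the CIP/KIP family and CDKN2A, CDKN2C and CDKN2D of the INK4 family, and they were taken as the rows whose Ensembl identifiers carry these symbols. All 6 were found among the 25693 human genes of the deposited count table, and all 6 passed the filter on low counts. NGP cells had been synchronised by withdrawal of serum and were then kept for 24 h with either Nutlin-3, an inhibitor of the contact between MDM2 and p53, or ethanol. Single cells were processed on the ddSeq droplet device with a kit that reads the 3' end of polyadenylated RNA, in 4 libraries, 2 per treatment. The libraries of a treatment differed in the dilution of the added ERCC spike-in RNAs, 1000-fold or 10000-fold.

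Cyclin-dependent kinases drive the cell through its cycle when bound to a cyclin, and the inhibitors hold them back. CIP/KIP proteins bind complexes of cyclin and kinase, above all those of CDK2, whereas INK4 proteins bind CDK4 and CDK6 and keep D-type cyclins from them. When CDK4, CDK6 and CDK2 are held, the retinoblastoma protein stays in the form that restrains E2F factors, and entry into S phase is delayed. CDKN1A, the gene of p21, is among the best known transcriptional targets of p53.

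The deposited columns name a treatment and not a library, so each treatment was 1 pool of 250 columns and no difference below has a replicate or a test. The pools held 1301232 human counts with Nutlin-3 and 1342134 with ethanol. Column totals fell into a large and a small class on either side of 4000 counts, with 113 large and 137 small columns in each pool. Median human counts were 10617 and 10738 per large column and 828 and 868 per small column, in Nutlin-3 and ethanol. The 12-base names of all 113 large columns were the same in both pools, as were 106 of the 137 names of small columns. In large columns 92.5% of the values above 0 in Nutlin-3 and 91.8% in ethanol were equal to 1. Among genes with a mean of 0.9 to 1.2 counts per large column, variance divided by mean had a median of 0.129 with Nutlin-3 and 0.120 with ethanol, where independent counts would give about 1. Columns are therefore not called cells here, and whether a column stands for 1 cell was not tested. Of the markers of adrenergic neuroblastoma, all 11 had counts in both pools, 131 to 877 with Nutlin-3 and 104 to 1140 with ethanol, with summed levels of 2569 and 2510 CPM (counts per 1000000 human counts, TMM-scaled). Summed levels of 6 mesenchymal or fibroblast markers were 68.5 and 84.8 CPM, those of the immune markers CD14 and LYZ 43.1 and 23.1 CPM, and those of the epithelial markers EPCAM and KRT8 16.2 and 13.4 CPM. The part of these other markers in the results was not tested. Further listed markers were not among the deposited genes, namely the immune PTPRC and CD3E, the mesenchymal COL1A2, the epithelial KRT18 and the endothelial PECAM1 and CDH5.

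The start regions of 3 members are shown because their counts stood higher (CDKN1A), alike (CDKN1B) and lower (CDKN2C) in the Nutlin-3 pool. They are RefSeq sequences on GRCh38.p14, 250 bases before to 50 after an annotated start, on the plus strand. Capitals mark GC boxes (GGGCGG) and CCAAT boxes (CCAAT), read on both strands. Matches may overlap, as adjoining GC boxes do in CDKN1A and CDKN2C.
CDKN1A, chr6:36678464-36678763: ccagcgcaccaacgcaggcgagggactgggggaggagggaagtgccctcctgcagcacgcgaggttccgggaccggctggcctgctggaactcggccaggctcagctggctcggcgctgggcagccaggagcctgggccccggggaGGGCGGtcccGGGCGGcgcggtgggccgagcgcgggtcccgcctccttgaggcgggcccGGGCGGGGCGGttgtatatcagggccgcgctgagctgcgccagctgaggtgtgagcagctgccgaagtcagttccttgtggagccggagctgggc
CDKN1B, chr12:12717118-12717417: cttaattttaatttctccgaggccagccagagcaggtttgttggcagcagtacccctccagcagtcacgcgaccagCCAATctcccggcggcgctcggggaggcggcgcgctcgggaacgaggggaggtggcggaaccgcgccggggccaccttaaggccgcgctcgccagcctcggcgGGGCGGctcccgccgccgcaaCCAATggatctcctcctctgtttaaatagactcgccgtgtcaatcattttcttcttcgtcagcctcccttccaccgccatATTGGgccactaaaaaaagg
CDKN2C, chr1:50968456-50968755: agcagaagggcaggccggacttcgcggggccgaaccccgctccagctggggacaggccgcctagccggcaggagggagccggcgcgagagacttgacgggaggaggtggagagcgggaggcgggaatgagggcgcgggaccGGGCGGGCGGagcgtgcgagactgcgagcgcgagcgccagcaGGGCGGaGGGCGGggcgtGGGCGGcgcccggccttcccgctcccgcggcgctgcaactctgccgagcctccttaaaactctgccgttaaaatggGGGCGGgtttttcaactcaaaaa
The CDKN1A window held 4 GC boxes and 0 CCAAT boxes, the CDKN1B window 1 and 3, and this CDKN2C window, the middle one of 3 starts of that gene, 6 and 0. A GC box was present in 45.0% and a CCAAT box in 34.6% of 35116 start regions of the same length. G and C made up 74.3% of the CDKN1A window, 62.3% of the CDKN1B window and 71.3% of the printed CDKN2C window, against a median of 58.7% over all windows. The other CDKN2C windows, from 50960495 and from 50969995, were unlike the printed one. They had 46.3% and 49.3% G and C, 0 and 1 GC boxes, and 0 and 1 CCAAT boxes. The TATA box (TATAAA), the CHR element (TTTGAA) and the p53 half-site were also searched on both strands and had 0 matches in the 8 windows of the 5 members that the table covers. They occurred in 11.5%, 15.2% and 6.63% of all windows. Sequence beyond these windows was not searched, so p53 sites farther from a start would be missed. CDKN1C had no entry.

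CDKN1A was the 1 member of 6 with a count 1.5-fold or more higher in the Nutlin-3 pool, and CDKN2C the 1 member with a count 1.5-fold or more lower. Over the 14830 genes that passed the filter, 7.86% were that much higher and 5.81% that much lower, and the median log2 ratio of Nutlin-3 over ethanol was 0.0014. In large columns alone the same 2 members were past 1.5-fold, against 7.62% of all genes higher and 5.68% lower. In small columns alone, where 4 members had enough counts, CDKN1A, CDKN1C and CDKN2A were that much higher, against 15.1% of all genes, and 0 members that much lower, against 15.5%. The intervals of CDKN1C and CDKN2A there included 0. The filter lets a gene pass on 1 pool alone. In small columns CDKN1A (45 against 3 counts) and CDKN1C (11 against 7) passed only through the Nutlin-3 pool, where they were higher. The 3 CIP/KIP members together had 435 counts with Nutlin-3 and 313 with ethanol, a log2 ratio of 0.52 (0.31 to 0.74 as a 95% interval from counting). Without CDKN1A the other two summed to 247 and 243 counts, and the value was 0.07 (-0.19 to 0.33). The 3 INK4 members together had 242 and 304 counts, a log2 ratio of -0.28 (-0.53 to -0.03). The small columns alone had the opposite sign, 0.54 (-0.33 to 1.46). Scaling by the ERCC totals moved the median of all genes to -0.47, the CIP/KIP value to 0.051 and the INK4 value to -0.75. With that scaling CDKN1A stood at 1.00, where 2.93% of all genes were 1.5-fold or more higher. CDKN2D joined CDKN2C past 1.5-fold lower, at -0.91 and -1.53, where 28.9% of all genes were that much lower. The ERCC totals were 4007 counts with Nutlin-3 and 2989 with ethanol. Each pool mixed libraries with 1000-fold and 10000-fold diluted ERCC, so these totals depend on the unknown share of columns from each library. Intervals cover counting error only and take counts as independent, which the ratios of variance to mean given above do not bear out. Fewer cells with a transcript and less of it per cell cannot be told apart in these sums.

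**Figure D1:**
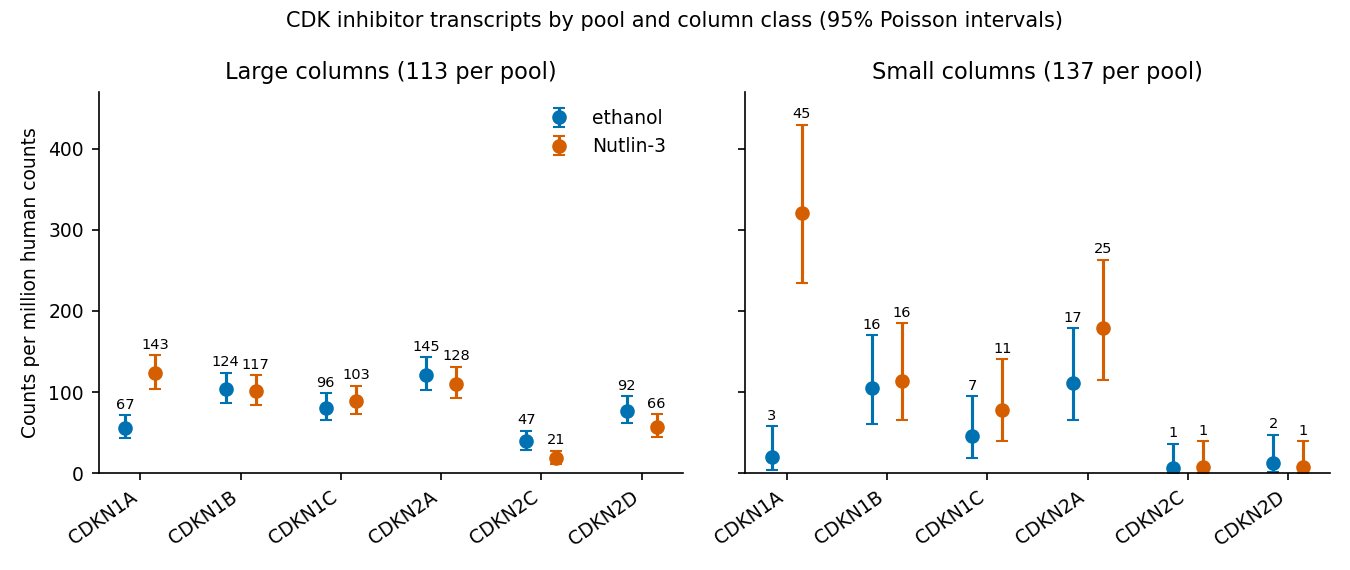
Level of each CDK inhibitor in CPM of human counts (vertical axis) in the ethanol and Nutlin-3 pools, for large columns (left) and small columns (right). Points are pool values, bars are 95% Poisson intervals and the number above each bar is the count. CDKN1A had 143 against 67 counts in large columns and 45 against 3 in small ones, the widest gaps between the pools among the 6 genes in this plot.

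CDKN1A (ENSG00000124762, chromosome 6, 36676460 to 36687339 on the plus strand, GRCh38 in GENCODE release 29) encodes p21, which inhibits CDK2 complexes and also binds the replication clamp PCNA. Counts were 188 in the Nutlin-3 pool (95% Poisson interval 162 to 217) and 70 in the ethanol pool (54.6 to 88.4). These were levels of 145 CPM (125 to 167) and 52.1 CPM (40.6 to 65.8), and the intervals did not overlap. The fold was 2.77 (2.10 to 3.71), or 1.47 on the log2 scale (1.07 to 1.89). Among the 5380 genes with 201 to 350 counts in both pools together, 0.0558% were 1.5-fold or more higher in Nutlin-3. Those were 3 genes, CDKN1A with MIR34AHG (157 against 60 counts) and DDB2 (144 against 98), the latter named after its values were seen. The central 95% of the genes in that range of counts lay between log2 ratios of -0.28 and 0.26. These ranges of counts were set after the values were seen. DINOL, an antisense gene that lies within the annotated span of CDKN1A in GENCODE, was not analysed here.

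Both column classes showed the higher count of CDKN1A, in different ways. In the large columns every one of 113 Nutlin-3 columns held the transcript, 88 with 1 count, 20 with 2 and 5 with 3. Of the 113 large ethanol columns 47 had none, 65 had 1 count and 1 had 2. The level was 123 CPM in Nutlin-3 and 56.2 CPM in ethanol, a log2 ratio of 1.13 (0.71 to 1.58). In the small columns 44 of 137 Nutlin-3 columns and 3 of 137 ethanol columns held it, with 321 CPM (234 to 430) against 19.7 CPM (4.06 to 57.5). The log2 ratio there was 3.82 (2.39 to 6.36), resting on 3 ethanol counts, and its interval lay above that of the large columns. The difference between the classes was not tested, since columns are not replicates. In the 31 small columns of each pool whose names did not occur in the other pool, CDKN1A had 9 counts with Nutlin-3 and 0 with ethanol. With 3 counts set for the ethanol pool the fold was 2.64, which leaves out the counting error of the 9 and is not a lower limit. In those columns CDKN1B had 5 against 1 counts and each of the other 4 members 0 to 3 in either pool. The ratio of variance to mean of CDKN1A was 0.226 in large and 0.721 in small Nutlin-3 columns, and 0.441 and 0.985 in ethanol.

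Column depth was followed in the small class by splitting all small columns into 3 depth groups of similar size, chosen after the values were seen. In the deepest group, above 1280 human counts, 29 of 45 Nutlin-3 columns held CDKN1A, a share of 64.4% (48.8 to 78.1, exact binomial limits at 95%). Of the ethanol columns 2 of 46 did, a share of 4.35% (0.531 to 14.8). Median depths were 1692 and 1856.5 counts. In the middle group it was present in 11 of 47 (23.4%) and 1 of 44 (2.27%) columns. In the shallowest group, up to 530 counts, it was present in 4 of 45 Nutlin-3 columns, 8.89% (2.48 to 21.2), and in 0 of 47 ethanol columns. That 0 allows a share of up to 6.38% (3 of 47 columns) and has an exact binomial upper limit of 7.55%. The share was higher in Nutlin-3 in each depth group, and the median depth was slightly lower there. The part of depth in these shares was not tested. In the shallowest group the limits of the pools overlapped. CDKN1B, counted in the same columns, was present in 10 of 45 and 11 of 46 columns of the deepest group, 22.2% and 23.9%. CDKN2A was higher with Nutlin-3 in that group, at 18 of 45 and 7 of 46 columns, 40.0% and 15.2%. Its shares were lower with Nutlin-3 in the middle group, 12.8% and 15.9%, and in the shallowest, 2.22% and 6.38%.

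**Figure D2:**
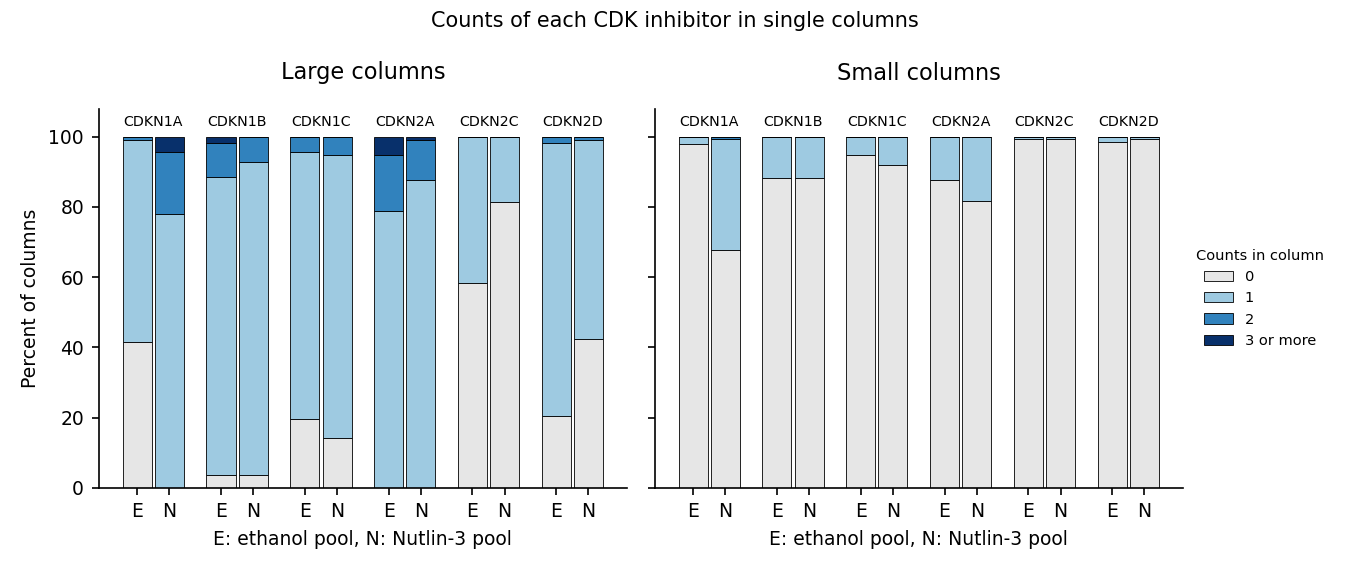
Percent of columns (vertical axis) with 0, 1, 2 or 3 and more counts of each CDK inhibitor, for large columns (left) and small columns (right), with the ethanol pool (E) beside the Nutlin-3 pool (N). CDKN1A was absent from 47 of 113 large ethanol columns and from 0 of 113 large Nutlin-3 columns, while values of 1 made up most of the columns with a count for every member.

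At a common depth of 700 human counts 187 Nutlin-3 and 194 ethanol columns remained, and 63 and 56 were too shallow. Averaged over all possible ways of thinning, the share of columns with CDKN1A was 14.8% in Nutlin-3 and 2.89% in ethanol. A single random thinning gave 18 of 187 columns, or 9.63% (5.81 to 14.8), and 10 of 194, or 5.15% (2.50 to 9.28). Its difference of 4.47 percentage points had an interval of -1.15 to 10.3 that included 0, and it was smaller than the average difference of 11.9 points. Split by class, the single thinning had the opposite direction in large columns, 6 of 113 against 8 of 113 columns, a difference of -1.77 points (-8.98 to 5.33). In small columns it gave 12 of 74 against 2 of 81, a difference of 13.7 points (4.0 to 24.4). The average shares, added after these values were seen, were 8.62% and 3.87% in large columns and 24.2% and 1.51% in small columns. Before thinning, the shares were 62.8% and 27.6% of 250 columns. The intervals of shares and of their differences take columns as independent, though columns are not replicates of a treatment. All columns come from 1 line, so no background share from free RNA could be set beside these values.

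CDKN1B (ENSG00000111276, chromosome 12, 12715058 to 12722371, plus strand) encodes p27, an inhibitor of CDK2 complexes that accumulates in cells that have stopped dividing and is removed through the ubiquitin ligase subunit SKP2. Counts were 133 (111 to 158) with Nutlin-3 and 140 (118 to 165) with ethanol, and the intervals overlapped almost fully. The log2 ratio was -0.03 (-0.38 to 0.33), or between 0.769-fold and 1.25-fold. In each pool 109 of 113 large columns held the transcript, and in each pool 16 of 137 small columns did. With 101 large Nutlin-3 columns and 96 large ethanol columns at exactly 1 count, the large columns could differ only through the few values of 0, 2 or 3. In small columns, where most values were 0, the level was 114 CPM against 105 CPM, a log2 ratio of 0.12 (-0.97 to 1.22).

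CDKN1C (ENSG00000129757, chromosome 11, 2883213 to 2885773, minus strand) encodes p57, the imprinted member of the family. Counts were 114 (94.0 to 137) with Nutlin-3 and 103 (84.1 to 125) with ethanol. Its log2 ratio was 0.19 (-0.20 to 0.59), which included 0 and became -0.28 when scaled to ERCC counts. Large columns held it in 97 of 113 cases with Nutlin-3 and 91 of 113 with ethanol. Small columns gave 11 against 7 counts, with overlapping Poisson intervals of 5.49 to 19.7 and 2.81 to 14.4.

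CDKN2A (ENSG00000147889, chromosome 9, 21967753 to 21995301, minus strand) encodes 2 unrelated products, the CDK4 and CDK6 inhibitor p16 and, from another first exon, ARF, which binds MDM2. The deposited row sums the whole gene, and reads from the 3' end do not tell these products apart. Counts were 153 (130 to 179) with Nutlin-3 and 162 (138 to 189) with ethanol, a log2 ratio of -0.03 (-0.36 to 0.29). All 113 large columns held it in both pools, with 1 count in 99 Nutlin-3 and 89 ethanol columns and a highest value of 3 and 5. The small columns pointed the other way, with 25 against 17 counts, 178 against 112 CPM, and a log2 ratio of 0.66 (-0.27 to 1.66) that included 0. Among the deepest group of small columns it was present in 18 of 45 with Nutlin-3 and 7 of 46 with ethanol, 40.0% (25.7 to 55.7) and 15.2% (6.34 to 28.9), whereas the middle group gave 6 of 47 and 7 of 44. CDKN2B-AS1, an antisense gene that overlaps the 5' end of CDKN2A, had 26 and 21 counts. Strand use in counting is not given in the sources used here, so reads of the overlap could belong to either. AL359922.1, a plus-strand gene annotated as protein coding that spans all of CDKN2A, was not among the deposited genes.

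CDKN2C (ENSG00000123080, chromosome 1, 50960745 to 50974633, plus strand) encodes p18, an INK4 protein known as a target of E2F factors. Counts were 22 (13.8 to 33.3) with Nutlin-3 and 48 (35.4 to 63.6) with ethanol, and the intervals did not overlap. The levels were 16.9 and 35.7 CPM, a log2 ratio of -1.06 (-1.88 to -0.32). It never exceeded 1 count in a column, and it was present in 21 of 113 large Nutlin-3 columns against 47 of 113 large ethanol columns. In the small columns it had 1 count in each pool, too few for a fold. Among the 1975 genes with 50 to 100 counts in both pools together, 9.82% were 1.5-fold or more lower and 13.8% that much higher in Nutlin-3. Differences past 1.5-fold were thus common at such counts. The central 95% of those genes ran from -0.97 to 1.18, and CDKN2C, at -1.06, lay just below that range.

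CDKN2D (ENSG00000129355, chromosome 19, 10566462 to 10569059, minus strand) encodes p19, the INK4 protein whose level is known to vary through the cell cycle. Counts were 67 (51.9 to 85.1) with Nutlin-3 and 94 (76.0 to 115) with ethanol. The log2 ratio of -0.44 (-0.91 to 0.03) included 0 and lay within the central 95% of the 3865 genes with 101 to 200 counts, -0.59 to 0.65. Of those genes 3.08% were 1.5-fold or more higher and 2.59% that much lower. Large columns held it in 65 of 113 cases with Nutlin-3 and in 90 of 113 with ethanol. Small columns had 1 and 2 counts. Before thinning, the share of all columns was 10.4 percentage points lower in Nutlin-3 for CDKN2C (interval of the difference -16.7 to -4.09) and 10.4 points lower for CDKN2D (-18.7 to -1.98). These intervals take columns as independent, are not tests of the treatment and do not allow for depth. Median depth was 2010.5 human counts per column with Nutlin-3 and 2287 with ethanol. In the large columns, which held nearly all counts of both genes, it was 10617 and 10738. The part of depth in these shares was not tested. At 700 counts the average shares were 0.965% against 1.73% for CDKN2C and 2.72% against 3.44% for CDKN2D, close to the level of a few columns.

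**Figure D3:**
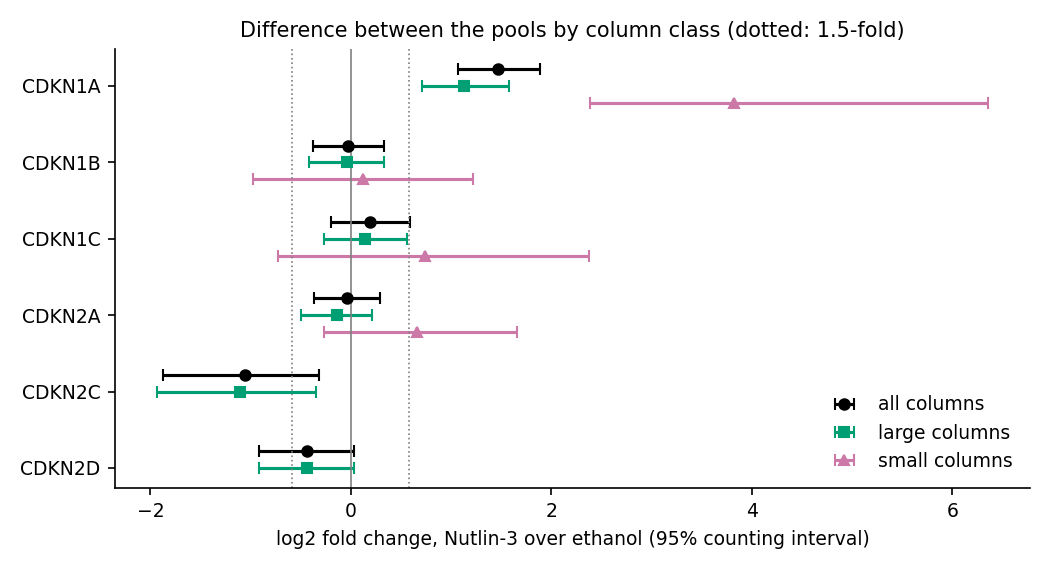
Log2 fold change (the log2 ratio) of Nutlin-3 over ethanol (horizontal axis) for each CDK inhibitor in all columns, large columns and small columns, with 95% counting intervals. CDKN1A lay at 1.47, 1.13 and 3.82, the intervals of CDKN1B, CDKN1C, CDKN2A and CDKN2D included 0, and no small-column value is drawn for CDKN2C and CDKN2D, which had 1 or 2 counts there.

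The members were also counted together in single columns. The median large column held 5 of the 6 transcripts in both pools. All 6 were present in 11 of 113 large Nutlin-3 columns and in 22 of 113 large ethanol columns. Single members differed in both directions there. CDKN2C was present in 21 and 47 large columns and CDKN2D in 65 and 90, but CDKN1A in 113 and 66 and CDKN1C in 97 and 91. CDKN1B and CDKN2A had the same number in both pools. In the small class the median column held 1 member with Nutlin-3 and 0 with ethanol. There, 68 of 137 Nutlin-3 columns and 98 of 137 ethanol columns held no member, and 7 and 2 columns held 3. Most of this gap lay in CDKN1A, present in 44 and 3 small columns. The other CIP/KIP members were present in 26 and 22 small columns, and the INK4 members in 27 and 19.

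Genes with a pattern most like that of CDKN1A were looked for over 4 values, the log2 CPM of both pools in large and in small columns, centred for each gene, among the 8844 genes whose mean reached 50 CPM. The nearest was MIR34AHG, the host gene of the microRNA miR-34a, at a distance of 0.51 log2 units. Its counts were 131 against 58 in large columns and 26 against 2 in small columns. FDXR, the gene of ferredoxin reductase, followed at 1.00, with 106 against 40 and 13 against 1 counts. OSBPL3 lay at 1.37, with 99 against 60 and 13 against 3 counts. SH3BP2 lay at 1.38 through its small columns, 14 against 2 counts, while its large columns had 91 against 82. TIGAR, which encodes a fructose bisphosphatase, lay at 1.46 and had 100 against 59 counts in large and 12 against 3 in small columns. The small-column values of all 5 rest on 1 to 3 ethanol counts, and the 4 values share their pools.

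The kinases, cyclins and regulators around the inhibitors were counted in a list of 31 genes, all of which passed the filter. In Nutlin-3, 3 of the 31 were 1.5-fold or more higher and 1 was 1.5-fold or more lower, near the 7.86% and 5.81% of all genes. By sign alone 8 were higher and 23 lower, against 7463 and 7367 of all genes, and the median was -0.08 against 0.0014. With ERCC scaling 1 gene was that much higher and 14 were that much lower, against 2.93% and 28.9% of all genes, and the list median was -0.55 against -0.47 over all genes. The higher genes were CCND2, a D-type cyclin, with 17 against 3 counts (log2 ratio 2.37, 0.76 to 4.96), CCNE1, a cyclin of CDK2, with 64 against 38 (0.79, 0.20 to 1.42), and MDM2, the p53 ubiquitin ligase. For MDM2 the counts were 504 against 315 and the log2 ratio was 0.73 (0.52 to 0.93). CCND2 passed the filter only through the Nutlin-3 pool, where it was higher. No share of genes with counts as low as those of CCND2 was set beside it. The lower gene was CCNE2, the other E-type cyclin, with 45 against 72 counts (-0.62, -1.20 to -0.07). In large columns alone its counts were 45 against 69 and its log2 ratio -0.57, short of 1.5-fold. PCNA, the clamp that p21 binds, had 176 against 225 counts, a log2 ratio of -0.30 (-0.60 to -0.01). In the small columns alone 23 genes of the list passed, of which 2 were 1.5-fold or more higher and 10 that much lower, where 15.1% and 15.5% of all genes were. Of the lower genes RB1, E2F2, CUL1, DTL and CDC25A passed the filter only through the ethanol pool, where they were higher. RBL2, a higher gene with 10 against 7 counts, passed only through the Nutlin-3 pool. These numbers are therefore not a result about the list.

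**Figure D4:**
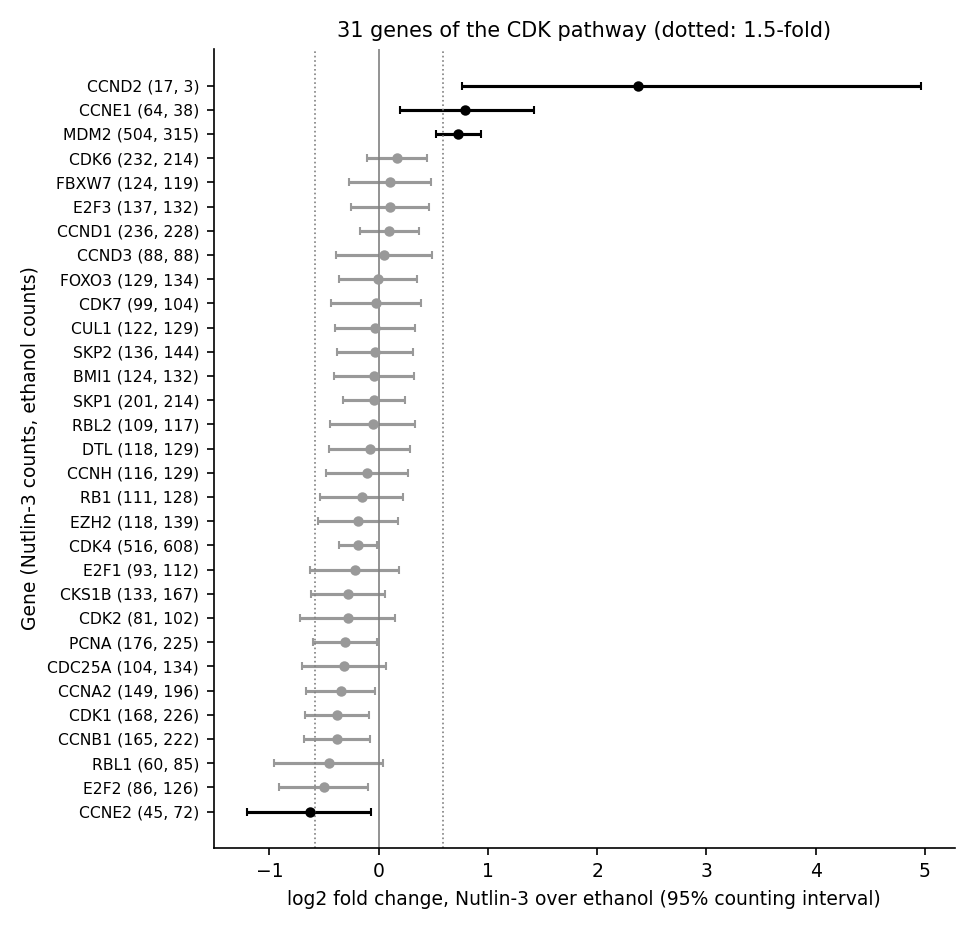
Log2 fold change (the log2 ratio) of Nutlin-3 over ethanol (horizontal axis) with 95% counting intervals for the 31 genes of the CDK pathway, ordered by value, with the counts of both pools beside each name. Black points are the 4 genes past 1.5-fold, CCND2, CCNE1, MDM2 and CCNE2, and 23 of the 31 points lie below 0.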

How the data were processed

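Single-cell RNA of 4 NGP libraries was analysed from the counts that the authors deposited, whole numbers per gene and column. Not given in the sources used here are the aligner, build, barcode and molecular tag handling and cell filter. Column endings gave the treatment: treated was taken as Nutlin-3, and untreated as ethanol, the other label. No column names its library, so each treatment was 1 pool and no test was run. Counts were summed per pool without ERCC species and scaled with TMM factors (edgeR 4.0.16, R 4.3.3), and genes were filtered with its minimum of 10. Log2 fold changes had 0.5 counts added, with intervals from the exact binomial share. Intervals of differences in shares combined both exact intervals and took columns as independent. Folds were not given where both pools had 3 counts or fewer. Thinning to 700 counts used numpy 2.4.6. No doublet caller was run on this single line. The sums and intervals were tested on simulated sums drawn as independent Poisson counts. The ratios of variance to mean in large columns depart from that, so the intervals were not checked for such data. Symbols and positions came from a gene name table and GENCODE release 29, whose build need not be the authors' own. Members were always named, as were MDM2, PCNA, pathway genes past 1.5-fold and the 5 genes nearest CDKN1A. Members, lists and the 4000-count split were chosen with earlier results of these data known. Alternatives were DESeq2 1.42.0 size factors, total counts, ERCC scaling, 1 count added, no filter, subsets of columns, presence in place of counts and other thinning depths. Summed families with their alternatives and average shares by column class were added after seeing the data.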

Additional observations from a re-analysis of the deposited data

How the results depend on the processing

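Of the alternative values, 51 for the folds and 35 for the shares of columns lay within the interval of the reported value, and 15 and 7 did not. For the pathway list 10 values were close to the reported ones (counts within 1.5 times) and 5 were not. The sign of CDKN1A and CDKN2C, the 2 members past 1.5-fold, was the same wherever a fold could be given. ERCC scaling, which shifts every gene by one constant, gave log2 ratios of 1.00 for CDKN1A, -0.50 for CDKN1B, -0.28 for CDKN1C, -0.51 for CDKN2A, 0.051 for summed CIP/KIP and -0.75 for summed INK4 members. For the 31 genes of the pathway list it gave 1 higher and 14 lower, against 2.93% and 28.9% of all genes. The list median was then -0.55, against -0.47 over all genes. Small columns alone gave 3.82 for CDKN1A, 0.74 for CDKN1C, 0.66 for CDKN2A, 1.57 for CIP/KIP and 0.54 for INK4. They also gave 10 lower of 23 pathway genes, against 15.5% of all genes, and large columns alone 0 of 31, against 5.68%. Some of those 10 genes passed the filter only through the ethanol pool, where they were higher. The 31 columns per pool with names found in 1 treatment gave 4.06 for CDKN1A, on 9 against 0 counts. That value depends on the 0.5 counts added, and with 3 counts set for ethanol the fold was 2.64. The same columns gave 1.69 for CDKN1B (5 against 1), 2.13 for CIP/KIP and 0.18 for INK4, and too few counts for a fold of the other 4 members. The difference in the share of columns with CDKN1A was 35.2 points without thinning, -1.77 (-8.98 to 5.33) in large and 13.7 in small columns thinned once, 11.9 averaged over thinnings and 22.7 so averaged in small columns. CDKN2C and CDKN2D each gave -10.4 points without thinning. The cause was not tested. No paired analysis was possible because no column can be traced to a library, and leaving out a library could not be done for the same reason.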

Other observations

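Genes with related names were read from the same pools and were chosen after their values were seen. CDKN2B, the INK4 gene of p15 beside CDKN2A and not among the 6 members, had 33 counts (22.7 to 46.3) with Nutlin-3 and 30 (20.2 to 42.8) with ethanol (Poisson limits), a log2 ratio of 0.18 (-0.57 to 0.95). It was present in 29 of 113 large columns in each pool. CDKN3, which encodes a phosphatase of CDK2 and not an inhibitor of these families, had 158 and 176 counts, a log2 ratio of -0.11 (-0.43 to 0.21). CDKN2AIP, whose product binds ARF, had 102 and 114 counts and a value of -0.11 (-0.51 to 0.29). All 3 intervals included 0.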
